A study of Acomys cahirinus and Mus musculus with 24 samples.

Results

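Chemokines are small secreted proteins that direct the movement of white blood cells, and chemokine receptors are the G protein-coupled receptors through which cells sense them. The genes described here are 39 named members of this family, 29 ligands and 10 receptors, matched by gene symbol in 3 count tables. All 39 were in the table of 24090 features for Mus musculus and in the table of 144683 features for Acomys cahirinus. A table of 14548 features shared by the species held 34 of them and lacked Ccl5, Ccl17, Ccl25, Cxcl10 and Ccr10. RNA had been sequenced from the dorsal skin of adult CD-1 mice, an outbred strain of Mus musculus, and of adult Acomys cahirinus, the spiny mouse, whose strain the labels do not give. In each species the groups were unwounded skin (day 0) and full-thickness excisional wounds, 8 mm across when made, collected 7 or 14 days later. Each group had 4 libraries except Mus skin, which had 3 (numbers 1, 2 and 4), number 3 having been dropped by the submitters on grounds of quality. Libraries are named by their replicate number. No agent or genetic change is given for any group. The labels do not say that replicates came from separate animals, so p-values measure only the spread between these libraries.

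Ligands are named by the spacing of their first cysteines, which are adjacent in the CC family, separated by a single residue in the CXC family and by a longer gap in CX3C. Inflammatory chemokines are induced in injured tissue and draw neutrophils (through Cxcr2) and monocytes (through Ccr2 and Ccr1) out of the blood. Homeostatic chemokines are made in unwounded skin by keratinocytes, fibroblasts or lymphatic vessels and position resident cells. In healing skin, neutrophils arrive early, and monocytes that become macrophages follow.

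To show each cysteine spacing, the ligands of Cxcr2 and Ccr2 and a few others described below are represented by the stretch of mouse coding sequence around these cysteines, read 5′ to 3′ from GENCODE vM21 transcripts (GRCm38, a later build than the mm9 named by the submitters), on the strand of each gene, which is the minus strand for Cxcl14, Ccl3 and Ccl19 and the plus strand for the others. Cysteine codons of the motif are in capitals. The ELR ligands of Cxcr2 lie together on chromosome 5, and Cxcl14 lies on chromosome 13.
Cxcl1: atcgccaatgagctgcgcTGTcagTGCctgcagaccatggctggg
Cxcl2: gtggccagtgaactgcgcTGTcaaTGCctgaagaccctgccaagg
Cxcl3: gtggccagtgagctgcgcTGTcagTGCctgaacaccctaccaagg
Cxcl5: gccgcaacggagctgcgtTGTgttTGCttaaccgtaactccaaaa
Cxcl14: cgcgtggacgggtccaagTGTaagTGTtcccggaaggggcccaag
The inflammatory CC ligands lie on chromosome 11, and Ccl19 lies on chromosome 4.
Ccl3: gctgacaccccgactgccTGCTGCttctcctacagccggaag
Ccl4: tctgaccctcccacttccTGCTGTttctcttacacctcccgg
Ccl2: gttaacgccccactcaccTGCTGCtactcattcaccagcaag
Ccl7: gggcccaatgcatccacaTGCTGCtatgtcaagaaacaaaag
Ccl8: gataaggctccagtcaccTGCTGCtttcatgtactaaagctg
Ccl12: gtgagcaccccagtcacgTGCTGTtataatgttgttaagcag
Ccl19: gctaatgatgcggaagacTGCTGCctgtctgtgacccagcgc
The membrane-anchored Cx3cl1, on chromosome 8, has the wider spacing.
Cx3cl1: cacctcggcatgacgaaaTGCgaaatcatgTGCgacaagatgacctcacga
On this build the 4 Cxcr2 ligand genes are near neighbours: Cxcl5 spans chr5:90759360-90761624, Cxcl3 chr5:90786103-90789600, Cxcl1 chr5:90891241-90893115 and Cxcl2 chr5:90903871-90905938. Ccl2 (chr11:82035571-82037453), Ccl7 (chr11:82045712-82047525), Ccl12 (chr11:82101845-82103400) and Ccl8 (chr11:82115185-82116799) form a second group on chromosome 11, and Ccl3 (chr11:83647844-83649355) and Ccl4 (chr11:83662584-83664683) are adjacent further along it. The coding sequences of mouse Cxcl2 and Cxcl3 were identical at 269 of 300 aligned bases (89.7%), those of Cxcl1 and Cxcl2 at 75.7%, and those of Ccl3 and Ccl4 at 65.6%. Reads of Cxcl2 and Cxcl3 could therefore have been split between them by the counting, which was not tested.

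Depth was 9339214 to 13188137 counts per library in the Mus table, 13090599 to 18470245 in the Acomys table and 5980683 to 9853153 in the shared table. Levels below are in CPM, counts scaled to a common library size, and are listed in replicate order. They can be compared between libraries of the same table, not between genes or tables. Fold changes are log2 values from edgeR's quasi-likelihood test, with p-values adjusted over all features of a table and 0.05 as the threshold. That test gives no SE. The SE printed after ± was derived as the absolute log2 value over the square root of the F statistic. It is approximate, above all where counts are few. Markers of other cells moved with the wounds. The summed level of 8 neutrophil markers was 77.1 to 97.9 CPM in Mus skin, 1819 to 3881 in the day 7 wounds and 92.4 to 309.7 in the day 14 wounds. In Acomys it was 119 to 212, 1291 to 1527 and 111 to 138 CPM. Members of the list did not all follow the sum, since in Acomys at day 14 Trem1, S100a9, S100a8, Ltf and Csf3r were above skin and Mmp8 and Il1r2 below it. At day 7, 7 of the 8 rose in Mus and 6 in Acomys. The sum of 9 monocyte and macrophage markers was 947 to 1050.3, 1971 to 2856 and 1178 to 1785 CPM in Mus. The Acomys sums were 231 to 499, 1638 to 2955 and 751 to 1218 CPM. The sum of 4 immediate early genes (Fos, Jun, Egr1 and Ier2), which respond quickly to tissue handling among other stimuli, was 76.5 to 196, 391 to 1217 and 143 to 756 CPM in Mus, where Egr1, Ier2 and Jun rose at day 7. Its Acomys values were 80.8 to 179, 135 to 298 and 107 to 131 CPM, and Fos and Jun rose at day 7. No marker of these lists was at 0 throughout a group of a species table. In Mus, skeletal muscle markers summed to 10043 to 11233 CPM in skin but to 18.1 in day 7 replicate 3 and to 5.28 and 13.96 in day 14 replicates 2 and 3, against 1091 to 4139 in the other wound libraries. These 3 are called muscle-poor below. In bulk tissue a larger number of cells of a type and more RNA per cell cannot be told apart, and the part of these markers in the results below was not tested.

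At day 7 the Cxcr2 ligands Cxcl1, Cxcl2, Cxcl3 and Cxcl5, with Ccl2, Ccl3, Ccl4, Ccl6 and Ccl7, rose above unwounded skin in both species, and Ccl19, Ccl24, Ccl27a and Cxcl14 fell in both. In Mus, 37 members passed the filter on low counts (all but Ccl17 and Ccl25). Of these 18 rose and 7 fell, beside 29.3% of all features tested that rose and 28.3% that fell. In Acomys, 38 passed (all but Ccl5). Of these 19 rose and 12 fell, beside 21.2% and 21.9% of all features. The median log2 fold change of the members was 1.86 in Mus and 0.99 in Acomys, where the medians of all features were 0.01 and -0.03. Fewer members were called at day 14 than at day 7 in each species. The counts of the species come from separate tables that differ in features tested and in skin libraries. They therefore do not test a difference between species. In Mus, 15 members were raised and 4 lowered, against 23.2% and 22.7% of all features, with a member median of 0.93 (all features 0.02). In Acomys, 4 were raised and 4 lowered, against 11.7% and 10.5%, with a member median of 0.03 (all features -0.01). The shares of called features are the background for every count within the same comparison. Without the 3 muscle-poor libraries, 21 members rose and 7 fell at day 7 in Mus, and 13 and 4 at day 14. With replicate number added to the fit as a block, 21 rose and 7 fell at day 7 in Mus, and 16 and 4 at day 14. The difference between the species was tested gene by gene in the shared table, as described last.

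**Figure D1:**
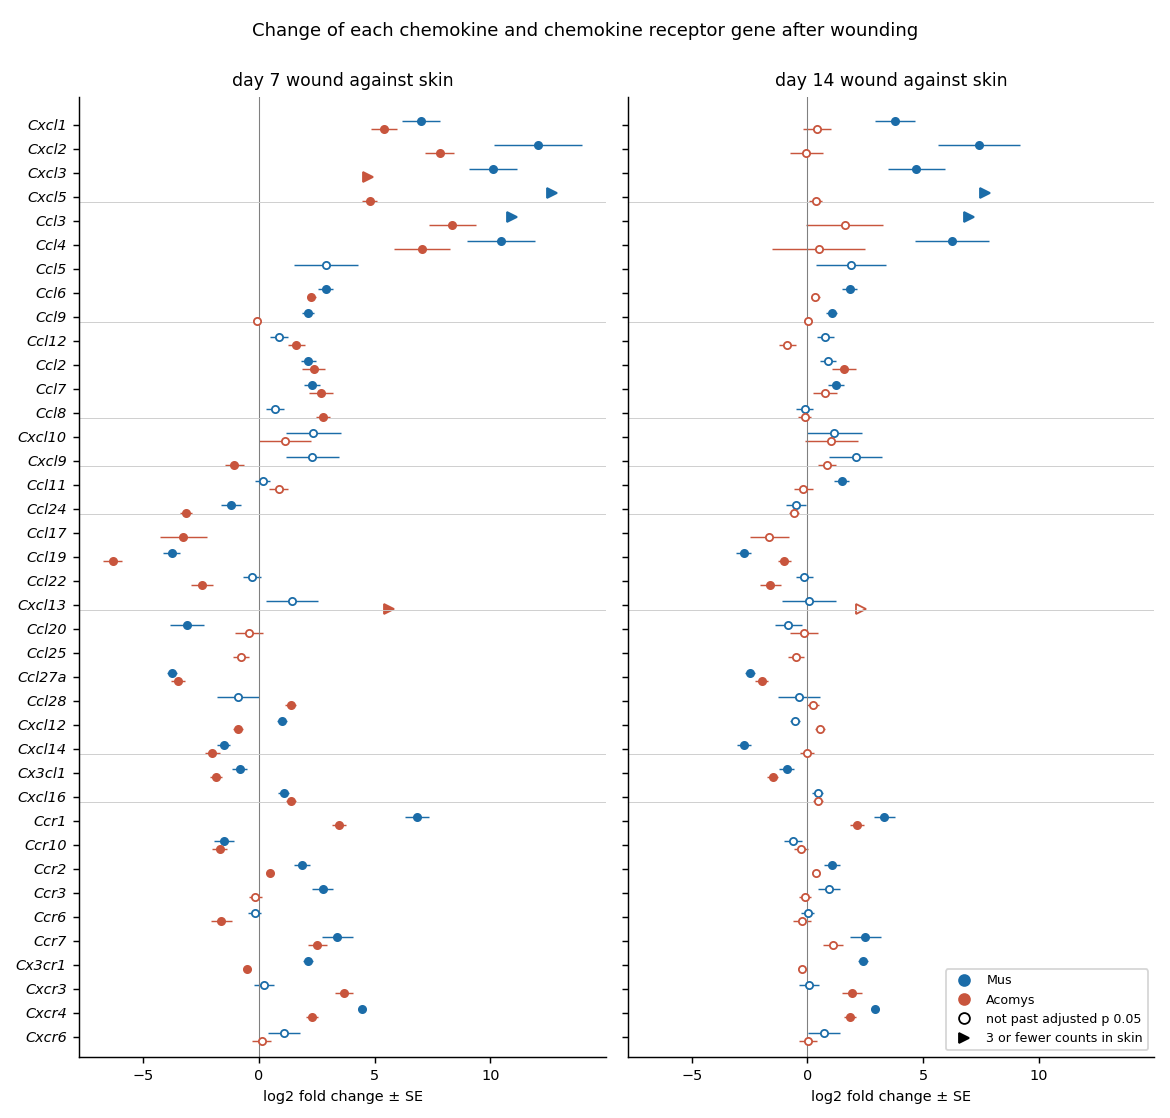
Log2 fold change of each member against skin of its own species at day 7 and day 14, with its SE; filled symbols mark adjusted p under 0.05, and triangles mark genes with 3 or fewer counts in the skin libraries, drawn at their lower bound or count ratio. Cxcl1, Cxcl2, Cxcl3, Cxcl5, Ccl3 and Ccl4 lie far to the right at day 7 in both species, and at day 14 only in Mus are they filled.

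The ligands of Cxcr2, which recruit neutrophils, gave some of the largest rises. All 4 rose at day 7 in each species. All 4 were still raised at day 14 in Mus, and none passed the test at day 14 in Acomys. Cxcl2, a product of activated macrophages and neutrophils, was at 0.177, 0.148 and 0.217 CPM in the 3 Mus skin libraries, 932, 1054, 689 and 577 CPM in the day 7 wounds and 35.6, 1.44, 1.89 and 90.0 CPM in the day 14 wounds. Every wound library lay above every skin library, but day 14 replicates 1 and 4 stood far above replicates 2 and 3. The log2 fold change was 12.05 ± 1.91, adjusted p = 0.000433 at day 7 and 7.397 ± 1.77, adjusted p = 0.00693 at day 14. Without day 14 replicate 4 the day 14 value was 6.08. In Acomys, Cxcl2 was at 0.767, 1.28, 0.332 and 1.89 CPM in skin. Wound levels of Cxcl2 were 180.1, 81.6, 386 and 295 CPM at day 7 and 1.18, 1.48, 0.747 and 0.735 CPM at day 14. The day 7 libraries were all above skin (7.81 ± 0.627, adjusted p = 2.22e-06), and the day 14 libraries overlapped it (-0.05 ± 0.719, adjusted p = 0.975).

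Cxcl1, the related chemokine of keratinocytes and stromal cells, followed a similar course. Its Mus levels were 0.620, 0.297 and 0.579 CPM in skin, 80.3, 55.2, 68.6 and 53.1 at day 7 and 7.27, 15.8, 1.04 and 4.15 at day 14, with no overlap between skin and either wound group. It rose by 6.99 ± 0.830, adjusted p = 5.84e-05, at day 7 and by 3.78 ± 0.864, adjusted p = 0.00526, at day 14, where replicate 2 was highest. The day 14 value without that library was 3.04. In Acomys the levels were 0.795, 2.56, 0.332 and 2.83 CPM in skin, 56.9, 40.1, 115 and 62.1 at day 7 and 2.82, 3.04, 1.41 and 1.42 at day 14. The day 7 rise was 5.40 ± 0.575, adjusted p = 1.85e-05, and at day 14 the value was 0.41 ± 0.608, adjusted p = 0.705, with libraries inside the range of skin except for replicate 2 at 3.04 CPM.

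Cxcl5, a neutrophil chemokine of epithelial cells, started from unlike levels. Mus skin had a single count in 3 libraries (0, 0.0742 and 0 CPM), while the wounds held 301, 40.7, 83.0 and 260.1 CPM at day 7 and 3.004, 3.33, 4.53 and 8.92 CPM at day 14. The ratio of wound to skin was 6548 at day 7 (95% interval 1175 to 258678, counting error only; adjusted p = 4e-05). At day 14 it was 201 (35.8 to 7988; adjusted p = 0.00615). Without skin replicate 2, which held that count, Cxcl5 was at least 1420-fold higher at day 7 and at least 43.7-fold higher at day 14, taking 3 counts over the group as the floor. Without skin replicate 4 the ratios were 4203 and 129. Acomys skin held Cxcl5 in every library, at 9.49, 11.5, 8.57 and 15.7 CPM, and it rose to 195, 261, 519 and 265 CPM at day 7 (4.78 ± 0.319, adjusted p = 3.18e-08) and was at 16.4, 16.9, 10.6 and 14.06 CPM at day 14 (0.36 ± 0.287, adjusted p = 0.438).

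Cxcl3 was at 0, 0.0742 and 0.290 CPM in Mus skin. The Mus wounds held 214, 159.6, 101 and 139 CPM at day 7 and 3.59, 0.222, 1.79 and 8.30 CPM at day 14. It rose by 10.10 ± 1.03, adjusted p = 2.24e-05, at day 7 (11.55 without skin replicate 4) and by 4.70 ± 1.22, adjusted p = 0.0103, at day 14 (6.14 without skin replicate 4 and 3.78 without day 14 replicate 4). Day 14 replicate 2, at 0.222 CPM, lay inside the range of skin. In Acomys no library of skin or of day 14 had a count, and the day 7 wounds held 1.09, 0.620, 2.16 and 1.47 CPM, 88 counts in all. The day 7 level was therefore at least 26.5-fold higher than in skin (adjusted p = 3.12e-05). In the authors' deposited annotation of the Acomys assembly no feature had Cxcl3 as its best protein match, so how its reads were assigned there is uncertain. The same holds for Ccl8, Ccl9, Ccl25 and Cxcl10. Between groups, the neutrophil marker sums given above rose at day 7 and were lower at day 14, as were all 4 ligands. In Mus day 14 wounds the sums were 218, 92.4, 293 and 309.7 CPM in replicate order. Not every ligand followed that order. Cxcl1 was highest in replicate 2, which had the lowest sum, and Cxcl2, Cxcl3 and Cxcl5 in replicate 4, which had the highest.

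**Figure D2:**
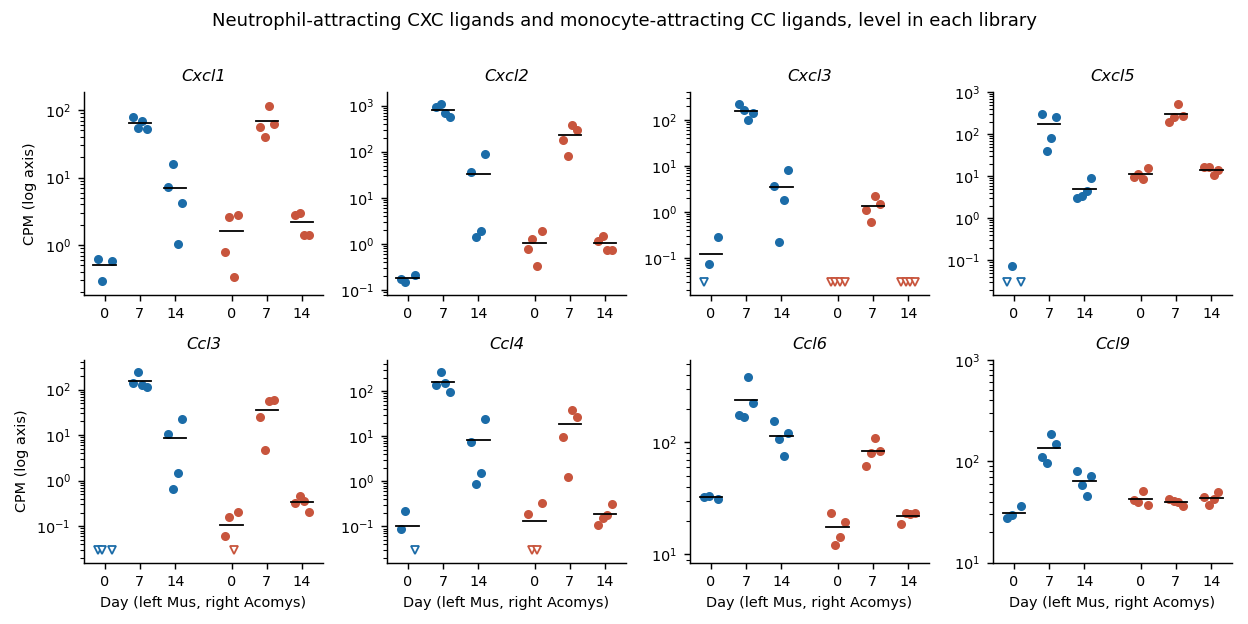
Level in each library (CPM, log axis) of 8 inflammatory ligands in skin and in day 7 and day 14 wounds of Mus (blue) and Acomys (red); dots are libraries, black lines are group means and open triangles are libraries with no count. The day 14 libraries of Cxcl2, Ccl3 and Ccl4 are spread widely in Mus and sit near skin in Acomys, and the 3 groups of Ccl9 overlap in Acomys.

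Ccl3, Ccl4, Ccl5, Ccl6 and Ccl9, which attract monocytes, macrophages or T cells, formed the next group of ligands. In Mus, Ccl3, Ccl4, Ccl6 and Ccl9 rose at both days and Ccl5 did not pass. In Acomys, Ccl3, Ccl4 and Ccl6 rose at day 7 and none of the 4 that could be tested passed at day 14. Ccl3 (MIP-1 alpha) had no count in any Mus skin library and was at 138, 239.8, 124 and 116 CPM at day 7 and 10.8, 0.666, 1.51 and 22.4 CPM at day 14. It was at least 1976-fold higher at day 7 (adjusted p = 0.000746) and at least 126-fold higher at day 14 (adjusted p = 0.0147). These bounds were 1286 and 82.1 without skin replicate 2 and 1268 and 81.0 without skin replicate 4. The day 14 bound was 57.1 without day 14 replicate 4, the highest library. A block for replicate number ended the day 14 call (adjusted p = 0.07), as did a fit of those 2 groups alone (adjusted p = 0.0567). In Acomys, Ccl3 was at 0.0625, 0.157, 0 and 0.202 CPM in skin. Acomys wound levels of Ccl3 were 25.4, 4.61, 57.0 and 57.7 CPM at day 7 (8.36 ± 1.02, adjusted p = 7.11e-05) and 0.324, 0.467, 0.360 and 0.210 CPM at day 14 (1.61 ± 1.66, adjusted p = 0.565). Day 7 replicate 2 was the lowest of its group but still above every skin library, and the day 14 libraries lay just above the skin range without passing the test.

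Ccl4 (MIP-1 beta), the neighbour of Ccl3, moved with it. Mus libraries held 0.0886, 0.223 and 0 CPM in skin, 138, 263, 149 and 94.6 at day 7 and 7.66, 0.888, 1.51 and 23.9 at day 14, so that each wound library was above each skin library. The rises were 10.46 ± 1.48, adjusted p = 0.000204, at day 7 (11.63 without skin replicate 2) and 6.25 ± 1.61, adjusted p = 0.00987, at day 14. The latter was 7.42 without skin replicate 2, 5.66 without skin replicate 4 and 4.89 without day 14 replicate 4. Acomys libraries held 0.187, 0, 0 and 0.337 CPM in skin, 9.75, 1.24, 37.4 and 27.1 at day 7 and 0.108, 0.156, 0.180 and 0.315 at day 14. The day 7 rise was 7.04 ± 1.199, adjusted p = 0.000856 (7.99 without skin replicate 4), and day 14 overlapped skin (0.48 ± 1.997, adjusted p = 0.904).

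Ccl6 and Ccl9, macrophage and myeloid chemokines found in rodents, began from measurable levels in skin. Ccl6 was at 32.9, 33.0 and 31.4 CPM in Mus skin. For Ccl6 the wounds held 175, 170.2, 384 and 227 CPM at day 7 (2.88 ± 0.331, adjusted p = 4.23e-05) and 156, 107, 76.3 and 121 CPM at day 14 (1.83 ± 0.316, adjusted p = 0.000998), with no overlap with skin. In Acomys, Ccl6 was at 23.7, 12.1, 14.41 and 19.7 CPM in skin. Ccl6 levels in Acomys wounds were 61.5, 80.8, 111 and 83.1 CPM at day 7 (2.26 ± 0.203, adjusted p = 4.97e-08) and 18.9, 23.7, 23.2 and 23.3 CPM at day 14 (0.35 ± 0.198, adjusted p = 0.242). Ccl9 rose in Mus and had no call in Acomys. It was at 27.5, 29.3 and 36.1 CPM in Mus skin. Wound levels of Ccl9 were 109.7, 96.9, 186 and 146.9 CPM at day 7 (2.12 ± 0.263, adjusted p = 6.59e-05) and 80.4, 57.9, 45.0 and 71.9 CPM at day 14 (1.04 ± 0.254, adjusted p = 0.00693). In Acomys the 3 groups overlapped, at 41.4, 39.8, 51.2 and 37.2 CPM in skin. The Acomys wounds held 42.3, 40.6, 39.5 and 36.3 CPM at day 7 (-0.10 ± 0.136, adjusted p = 0.602) and 43.8, 36.6, 42.5 and 50.0 CPM at day 14 (0.03 ± 0.135, adjusted p = 0.92). Ccl5 (RANTES), a T cell product, was at 0, 0.148 and 0.362 CPM in Mus skin. Mus wound levels of Ccl5 were 3.96, 0.0924, 0.237 and 1.24 CPM at day 7 and 2.04, 0.444, 0.0943 and 0.235 CPM at day 14. Replicate 1 was highest at both wound days. The day 7 value of 2.89 ± 1.40, adjusted p = 0.0997 missed the threshold, while a block for replicate number gave 2.86 (adjusted p = 0.0351). The same replicate had the highest sum of 8 T and NK cell markers, 58.3 CPM at day 7 and 60.1 CPM at day 14, while day 7 replicate 4 had 55.7 CPM and the other wound libraries 12.2 to 25.1 CPM.

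The ligands grouped here under Ccr2, a receptor of inflammatory monocytes, were Ccl2, Ccl7, Ccl8 and Ccl12. The receptor through which each acts was not tested, and Ccl8 in particular may act through another. As stated for Cxcl3, no Acomys feature had Ccl8 as its best protein match. At day 7 all 4 rose in Acomys, and Ccl2 and Ccl7 rose in Mus. Ccl2 (MCP-1), the main Ccr2 ligand, was at 4.17, 5.79 and 4.92 CPM in Mus skin. For Ccl2 the wounds held 27.9, 15.2, 14.25 and 30.3 CPM at day 7 and 8.92, 13.8, 6.60 and 7.91 CPM at day 14. Day 7 lay above skin without overlap (2.14 ± 0.341, adjusted p = 0.000354). So did day 14, whose value of 0.89 ± 0.338, adjusted p = 0.0512 missed the threshold but passed with a block for replicate number (1.04, adjusted p = 0.0299) and on leaving out Mus day 14 library 3, adjusted p = 0.0371. In Acomys, Ccl2 was at 7.87, 5.81, 3.25 and 13.4 CPM in skin. Ccl2 levels in Acomys wounds were 26.7, 23.1, 71.0 and 34.8 CPM at day 7 (2.36 ± 0.512, adjusted p = 0.0034) and 25.1, 36.0, 13.8 and 16.4 CPM at day 14 (1.58 ± 0.506, adjusted p = 0.0476). The day 14 call was lost on leaving out any of Acomys skin libraries 1, 2 and 3 and Acomys day 14 libraries 1, 2 and 4, adjusted p up to 0.137.

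Ccl7 (MCP-3) was at 6.38, 7.35 and 5.21 CPM in Mus skin. Wound levels of Ccl7 were 48.9, 18.3, 22.2 and 34.96 CPM at day 7 (2.30 ± 0.359, adjusted p = 0.000317) and 15.4, 20.9, 11.9 and 11.7 CPM at day 14 (1.24 ± 0.354, adjusted p = 0.0156; lost on leaving out Mus skin library 4, adjusted p = 0.0626, and with all 3 muscle-poor libraries left out, adjusted p = 0.0613). In Acomys, Ccl7 was at 9.74, 5.57, 2.86 and 13.2 CPM in skin. The Acomys wounds held 27.4, 31.2, 97.4 and 46.1 CPM at day 7 (2.68 ± 0.533, adjusted p = 0.00199) and 14.21, 18.4, 9.05 and 11.2 CPM at day 14 (0.75 ± 0.523, adjusted p = 0.374). Ccl8 (MCP-2), made by skin macrophages, was at 99.2, 105 and 90.5 CPM in Mus skin. Mus wound levels of Ccl8 were 231, 118, 147.1 and 138 CPM at day 7 and 99.4, 78.8, 39.7 and 145 CPM at day 14. The Mus values were 0.69 ± 0.369, adjusted p = 0.134, and -0.12 ± 0.363, adjusted p = 0.817, although each day 7 library lay above the skin range. The day 7 value was 0.73 (adjusted p = 0.0433) without the 3 muscle-poor wound libraries and 0.67 (adjusted p = 0.0319) in a fit of those 2 groups alone. In Acomys, Ccl8 was at 154, 78.4, 68.4 and 155 CPM in skin. For Ccl8 the wounds held 477, 892, 882 and 853 CPM at day 7 and 79.0, 99.5, 128 and 111 CPM at day 14. Every day 7 library stood above every other Acomys library (2.77 ± 0.297, adjusted p = 3.73e-06), and day 14 overlapped skin (-0.13 ± 0.280, adjusted p = 0.811). Ccl12 (MCP-5) also peaked at day 7 in Acomys, with 32.2, 15.3, 12.2 and 20.7 CPM in skin, 28.3, 64.9, 72.0 and 82.3 at day 7 (1.62 ± 0.353, adjusted p = 0.00248) and 7.62, 12.7, 13.3 and 10.6 at day 14 (-0.87 ± 0.358, adjusted p = 0.111), but day 7 replicate 1 overlapped skin. In Mus, Ccl12 was at 1.86, 2.67 and 1.67 CPM in skin. Ccl12 levels in Mus wounds were 5.82, 2.40, 2.14 and 4.64 CPM at day 7 (0.85 ± 0.381, adjusted p = 0.0763; passed on leaving out any of Mus day 7 libraries 2 and 3, adjusted p down to 0.0299, and with all 3 muscle-poor libraries left out, adjusted p = 0.0289) and 3.29, 5.11, 3.02 and 2.90 CPM at day 14 (0.78 ± 0.383, adjusted p = 0.121). Of the 9 monocyte and macrophage markers, 8 rose in Mus and 9 in Acomys at day 7, and 7 fell again by day 14 in Acomys, but only Cd14 and Itgam in Mus.

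**Figure D3:**
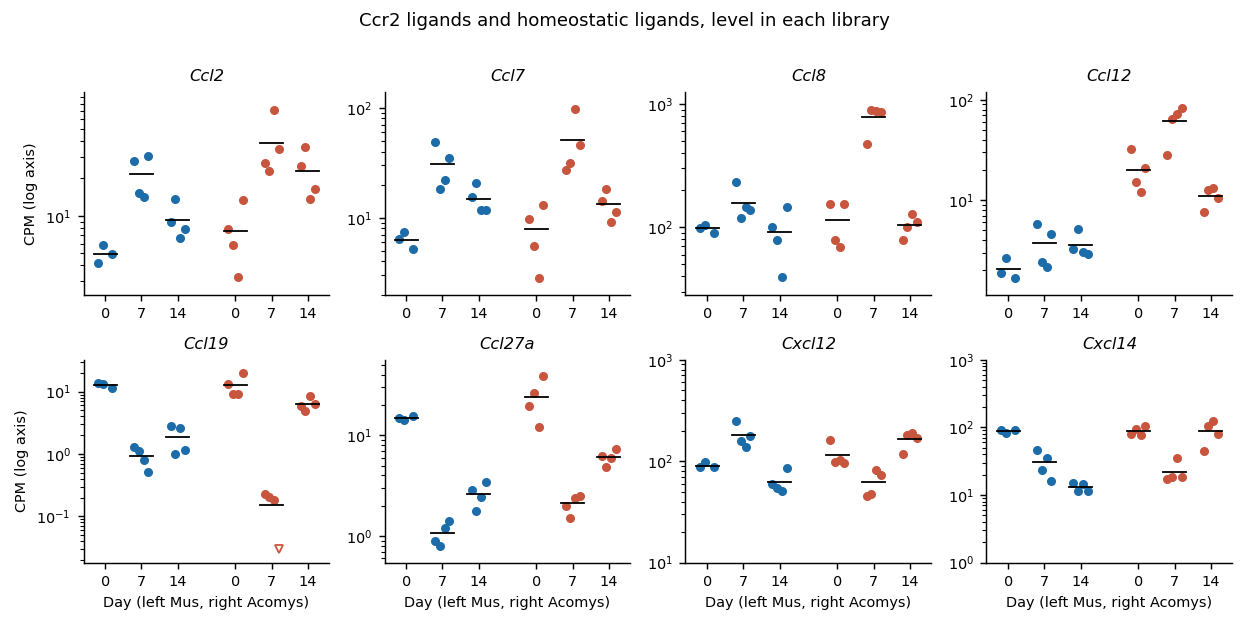
Level in each library (CPM, log axis) of Ccl2, Ccl7, Ccl8 and Ccl12, grouped here under Ccr2, and of Ccl19, Ccl27a, Cxcl12 and Cxcl14, with groups, colours and symbols as in the plot of inflammatory ligands. Ccl8 stands apart at day 7 in Acomys, Ccl19 and Ccl27a have their lowest means at day 7 in both species, and Cxcl12 moves in opposite directions in Mus and Acomys at day 7.

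Cxcl9 and Cxcl10, interferon-induced ligands of Cxcr3, a receptor of activated T cells, varied widely between replicates in Mus. Cxcl9 was at 4.01, 2.83 and 2.54 CPM in Mus skin. Wound levels of Cxcl9 were 32.6, 2.31, 1.98 and 24.8 CPM at day 7 and 34.1, 8.88, 2.07 and 7.83 CPM at day 14. It was high in replicate 1 at both wound days and in day 7 replicate 4. It did not pass at day 7 (2.31 ± 1.16, adjusted p = 0.112) or day 14 (2.09 ± 1.15, adjusted p = 0.166), but did with a block for replicate number (2.36, adjusted p = 0.0223, and 2.23, adjusted p = 0.0338), and at day 7 without the 3 muscle-poor libraries (2.69, adjusted p = 0.0402). In Acomys, Cxcl9 was at 11.2, 5.65, 4.38 and 8.64 CPM in skin and fell to 2.70, 6.95, 2.52 and 2.15 CPM at day 7 (-1.07 ± 0.410, adjusted p = 0.0495), a call lost on leaving out any of Acomys skin libraries 1, 2 and 4 and Acomys day 7 libraries 1, 3 and 4, adjusted p up to 0.153. At day 14 it was at 8.43, 15.02, 19.5 and 11.5 CPM (0.86 ± 0.387, adjusted p = 0.141). Cxcl10 was at 1.68, 1.86 and 1.81 CPM in Mus skin. The Mus wounds held 26.7, 1.85, 0.9499 and 7.01 CPM at day 7 (2.35 ± 1.18, adjusted p = 0.113; 2.08 and adjusted p = 0.0308 with the block) and 11.3, 2.11, 0.943 and 1.72 CPM at day 14 (1.16 ± 1.195, adjusted p = 0.455). Acomys libraries held less than 0.7 CPM of Cxcl10 in skin and reached 3.72 CPM in day 7 replicate 2, with no call against skin.

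Of the eosinophil-attracting ligands, Ccl24 (eotaxin-2) fell at day 7 in both species and Ccl11 (eotaxin-1) rose at day 14 in Mus. Ccl24 was at 6.81, 8.63, 5.84 and 8.30 CPM in Acomys skin. Acomys wound levels of Ccl24 were 0.861, 1.24, 0.721 and 0.491 CPM at day 7 and 4.48, 5.21, 4.26 and 5.98 CPM at day 14, with day 7 below every other library (-3.16 ± 0.257, adjusted p = 1.36e-08) and day 14 replicate 4 inside the range of skin (-0.57 ± 0.216, adjusted p = 0.0681; passed on leaving out Acomys skin library 3, adjusted p = 0.034). Mus levels of Ccl24 were 9.75, 10.8 and 11.7 CPM in skin. For Ccl24 the wounds held 1.94, 2.31, 8.79 and 5.47 CPM at day 7 (-1.21 ± 0.433, adjusted p = 0.0336) and 9.69, 7.104, 5.19 and 8.30 CPM at day 14 (-0.50 ± 0.425, adjusted p = 0.356). The Mus day 7 call was lost on leaving out any of Mus skin libraries 1, 2 and 4 and Mus day 7 libraries 1 and 2, adjusted p up to 0.0866. Ccl11 was at 5.76, 6.98 and 7.604 CPM in Mus skin. Ccl11 levels in Mus wounds were 5.50, 6.56, 9.90 and 8.25 CPM at day 7 (0.15 ± 0.317, adjusted p = 0.703) and 21.8, 9.21, 18.8 and 25.6 CPM at day 14, where every library exceeded skin (1.48 ± 0.318, adjusted p = 0.00343). In Acomys, Ccl11 was at 10.7, 8.47, 7.97 and 12.8 CPM in skin. Wound levels of Ccl11 were 7.57, 13.1, 36.5 and 14.73 CPM at day 7 (0.84 ± 0.401, adjusted p = 0.112; passed on leaving out Acomys day 7 library 1, adjusted p = 0.0141) and 8.70, 7.16, 12.4 and 7.09 CPM at day 14 (-0.18 ± 0.406, adjusted p = 0.816).

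Ccl19, the ligand that guides Ccr7-bearing dendritic and T cells toward lymphatic vessels and lymph nodes, was, with Ccl27a, the member that fell most at day 7 in each species. It was at 13.9, 13.3 and 11.6 CPM in Mus skin. The Mus wounds held 1.29, 1.11, 0.792 and 0.516 CPM at day 7 and 2.81, 0.999, 2.64 and 1.17 CPM at day 14. Every wound library was below every skin library, with log2 fold changes of -3.77 ± 0.360, adjusted p = 9.21e-06, at day 7 and -2.76 ± 0.336, adjusted p = 8.2e-05, at day 14. In Acomys, Ccl19 was at 13.3, 9.34, 9.16 and 19.6 CPM in skin. Acomys wound levels of Ccl19 were 0.230, 0.207, 0.180 and 0 CPM at day 7 and 5.89, 4.98, 8.45 and 6.40 CPM at day 14. The log2 fold change was -6.31 ± 0.412, adjusted p = 1.05e-09, at day 7 and -0.995 ± 0.265, adjusted p = 0.0101, at day 14, the latter call lost on leaving out Acomys skin library 4, adjusted p = 0.0669. The sum of 3 markers of lymphatic endothelium was slightly lower at day 7 than in skin in Mus (22.8 to 29.4 against 29.9 to 30.7 CPM) and higher in Acomys (115 to 146.8 against 23.2 to 46.6 CPM). Of these markers, Prox1 fell in both species, Lyve1 rose in Acomys, and Flt4 did not pass in either. The Ccr4 ligand Ccl22, made by dendritic cells and macrophages, fell in Acomys from 10.8, 15.1, 3.85 and 26.1 CPM in skin to 2.47, 2.96, 3.06 and 1.53 at day 7 (-2.47 ± 0.470, adjusted p = 0.000896) and 6.21, 3.74, 4.56 and 3.83 at day 14 (-1.60 ± 0.445, adjusted p = 0.021; lost on leaving out any of Acomys skin library 2 and Acomys day 14 libraries 2, 3 and 4, adjusted p up to 0.0733), with skin replicate 3 inside the range of the day 14 wounds. In Mus, Ccl22 stayed between 2.22 and 6.79 CPM in all libraries with no call. Ccl17, the other Ccr4 ligand, was at 1.16, 0.665, 0.133 and 4.92 CPM in Acomys skin. For Ccl17 the wounds held 0, 0.361, 0.220 and 0.125 CPM at day 7 (-3.27 ± 1.02, adjusted p = 0.0213) and 0.345, 0.746, 0.360 and 0.735 CPM at day 14 (-1.65 ± 0.837, adjusted p = 0.2). Its day 7 call was lost on leaving out any of Acomys skin library 4 and Acomys day 7 libraries 1 and 4, adjusted p up to 0.0632, and the value without skin replicate 4 was -1.82. Cxcl13, which attracts B cells through Cxcr5, had 3 counts in Acomys skin and 0.344, 2.89, 3.36 and 3.56 CPM at day 7, a ratio of 48.8 (16.4 to 239; adjusted p = 0.00168), and 0, 0.233, 0.719 and 0.105 CPM at day 14. Mus levels of Cxcl13 were 0.975, 2.15 and 1.81 CPM in skin. Cxcl13 levels in Mus wounds were 13.4, 0.739, 2.22 and 1.55 CPM at day 7 (1.44 ± 1.13, adjusted p = 0.297) and 3.88, 0, 0.283 and 2.66 CPM at day 14 (0.07 ± 1.17, adjusted p = 0.968), with day 7 replicate 1 far above its group.

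Among the epithelial and homeostatic ligands, Ccl27a and Cxcl14 fell in both species at day 7 and Cxcl12 went in opposite directions. Ccl27a (CTACK), which keratinocytes make and Ccr10 on skin-homing T cells binds, was at 14.9, 14.297 and 15.4 CPM in Mus skin. Wound levels of Ccl27a were 0.893, 0.795, 1.19 and 1.40 CPM at day 7 (-3.77 ± 0.228, adjusted p = 5.96e-07) and 2.85, 1.75, 2.46 and 3.41 CPM at day 14 (-2.48 ± 0.209, adjusted p = 7.65e-06). In Acomys, Ccl27a was at 19.7, 26.1, 12.2 and 38.5 CPM in skin. The Acomys wounds held 2.01, 1.51, 2.40 and 2.52 CPM at day 7 (-3.504 ± 0.301, adjusted p = 6.18e-08) and 6.16, 4.83, 5.94 and 7.35 CPM at day 14 (-1.98 ± 0.273, adjusted p = 4.8e-05). No wound library of either species reached its skin range. The 4 keratinocyte markers did not move together: at day 7 Krt14 and Krt1 rose and Krt10 and Krt5 fell in Mus, and only Krt14 passed in Acomys, upward. Their sum was 5976 to 11773 CPM at day 7 against 3195 to 4081 in skin in Mus and 2402 to 2911 against 767 to 1433 in Acomys. Mouse genomes hold a close copy, Ccl27b, and reads shared between the copies could affect Ccl27a in Mus, which was not tested.

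Cxcl14 (BRAK), a chemokine of unwounded epidermis and dermis, was at 90.8, 82.4 and 90.0 CPM in Mus skin. Mus wound levels of Cxcl14 were 46.9, 23.7, 35.3 and 16.3 CPM at day 7 and 15.02, 11.4, 14.61 and 11.6 CPM at day 14. It was lower at day 7 (-1.52 ± 0.279, adjusted p = 0.00095) and lower again at day 14 (-2.74 ± 0.292, adjusted p = 4.2e-05), when all 4 libraries were below every day 7 library. In Acomys, Cxcl14 was at 80.1, 95.2, 77.4 and 106 CPM in skin. For Cxcl14 the wounds held 17.1, 18.2, 35.4 and 18.2 CPM at day 7 (-2.01 ± 0.305, adjusted p = 0.000119) and 44.9, 106, 122 and 79.3 CPM at day 14 (-0.02 ± 0.291, adjusted p = 0.969), where replicate 1 lay below the range of skin and replicate 3 above it. Cxcl12 (SDF-1), the stromal ligand of Cxcr4, was at 87.4, 97.02 and 87.0 CPM in Mus skin. Cxcl12 levels in Mus wounds were 249, 158, 137 and 177 CPM at day 7 and 59.6, 54.6, 50.4 and 84.9 CPM at day 14. It rose without overlap at day 7 (0.99 ± 0.220, adjusted p = 0.0029), and at day 14 every library lay below skin but the value missed the threshold (-0.54 ± 0.214, adjusted p = 0.0631), which it passed on leaving out Mus day 14 library 4, adjusted p = 0.0137. In Acomys, Cxcl12 was at 161, 98.5, 102 and 95.8 CPM in skin, fell to 45.0, 47.6, 82.1 and 72.4 at day 7 (-0.89 ± 0.218, adjusted p = 0.00299) and was at 119, 179.5, 192 and 168 at day 14 (0.52 ± 0.216, adjusted p = 0.0957; passed on leaving out any of Acomys skin library 1 and Acomys day 14 library 1, adjusted p down to 0.0213).

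Ccl20, the Ccr6 ligand of stressed epithelium, was at 2.22, 0.817 and 1.23 CPM in Mus skin, fell to 0.243, 0.277, 0 and 0.103 CPM at day 7 (-3.10 ± 0.723, adjusted p = 0.00377) and was at 0.194, 0.666, 1.23 and 1.02 at day 14 (-0.83 ± 0.581, adjusted p = 0.266). In Acomys the groups overlapped at 0.863 to 7.61 CPM with no call. Ccl28, a mucosal ligand of Ccr10, rose in Acomys from 3.89, 3.12, 2.92 and 5.67 CPM in skin to 6.55, 12.4, 11.6 and 9.99 at day 7 (1.37 ± 0.247, adjusted p = 0.000156) and was at 3.19, 4.92, 5.58 and 4.86 at day 14 (0.24 ± 0.252, adjusted p = 0.559). In Mus, replicate 2 was highest in each group, at 2.75, 1.85 and 3.002 CPM, and no call was made. Ccl25, which acts through Ccr9, stayed under 2.4 CPM in every library of either species with no call against skin; it passed at day 7 in Acomys only on leaving out Acomys skin library 2, adjusted p = 0.0208.

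The membrane-anchored ligands went opposite ways at day 7. Cx3cl1 (fractalkine), which holds Cx3cr1-bearing monocytes to endothelium, was at 12.99, 10.9, 12.9 and 12.5 CPM in Acomys skin. Wound levels of Cx3cl1 were 4.76, 3.79, 1.74 and 3.25 CPM at day 7 (-1.86 ± 0.242, adjusted p = 4.4e-06) and 3.56, 3.42, 5.52 and 4.93 CPM at day 14 (-1.49 ± 0.237, adjusted p = 0.000134), with no wound library near skin. In Mus, Cx3cl1 was at 5.85, 6.01 and 7.17 CPM in skin. The Mus wounds held 4.61, 3.42, 3.40 and 2.68 CPM at day 7 (-0.84 ± 0.312, adjusted p = 0.0389; lost on leaving out any of Mus skin libraries 1, 2 and 4 and Mus day 7 libraries 2, 3 and 4, adjusted p up to 0.124) and 3.004, 2.997, 5.75 and 1.88 CPM at day 14 (-0.90 ± 0.315, adjusted p = 0.0368; lost on leaving out any of Mus skin libraries 1, 2 and 4 and Mus day 14 libraries 1, 2 and 4, adjusted p up to 0.114). Cxcl16, the Cxcr6 ligand of macrophages and dendritic cells, rose at day 7 from 28.7, 25.5 and 27.4 to 81.8, 41.6, 38.6 and 65.9 CPM in Mus (1.06 ± 0.230, adjusted p = 0.00249) and from 18.2, 19.0, 13.1 and 26.1 to 36.5, 49.0, 68.4 and 47.0 CPM in Acomys (1.39 ± 0.206, adjusted p = 2.08e-05). At day 14 the values of 0.44 ± 0.227, adjusted p = 0.135, in Mus and 0.45 ± 0.205, adjusted p = 0.133, in Acomys did not pass.

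Among the 10 receptors, Ccr1, Ccr2, Ccr7 and Cxcr4 rose at day 7 in both species. In Mus, Ccr3 and Cx3cr1 rose as well and Ccr10 fell. In Acomys, Cxcr3 rose as well and Ccr6, Ccr10 and Cx3cr1 fell. At day 14, Ccr1, Ccr2, Ccr7, Cx3cr1 and Cxcr4 were raised in Mus and Ccr1, Cxcr3 and Cxcr4 in Acomys. Ccr1, the receptor of neutrophils and monocytes for Ccl3, Ccl6 and Ccl9, was at 2.04, 2.30 and 3.98 CPM in Mus skin. Mus wound levels of Ccr1 were 426, 329.6, 217 and 304 CPM at day 7 (6.83 ± 0.501, adjusted p = 2.48e-06) and 34.0, 14.43, 20.6 and 43.2 CPM at day 14 (3.33 ± 0.442, adjusted p = 0.000193). In Acomys, Ccr1 was at 4.28, 4.16, 5.06 and 7.93 CPM in skin. For Ccr1 the wounds held 34.1, 54.9, 85.9 and 59.1 CPM at day 7 (3.44 ± 0.308, adjusted p = 4.61e-07) and 22.9, 34.6, 18.8 and 19.4 CPM at day 14 (2.15 ± 0.299, adjusted p = 0.00012). Skin and wounds did not overlap at either day in either species.

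Cxcr4, the receptor for Cxcl12 on most white cells and progenitors, rose at both days in each species. Mus levels of Cxcr4 were 3.90, 4.01 and 2.97 CPM in skin. Cxcr4 levels in Mus wounds were 91.6, 80.0, 65.2 and 82.4 CPM at day 7 (4.46 ± 0.169, adjusted p = 4.08e-08) and 29.0, 27.6, 23.01 and 29.9 CPM at day 14 (2.92 ± 0.162, adjusted p = 7.49e-07). In Acomys, Cxcr4 was at 2.62, 3.92, 1.86 and 3.04 CPM in skin. Wound levels of Cxcr4 were 9.98, 12.05, 18.2 and 15.3 CPM at day 7 (2.28 ± 0.259, adjusted p = 8.76e-07) and 9.02, 9.88, 14.51 and 7.24 CPM at day 14 (1.83 ± 0.259, adjusted p = 4.28e-05). Both wound groups lay wholly above skin in each species. Ccr2, the monocyte receptor, was at 58.6, 40.0 and 58.1 CPM in Mus skin. The Mus wounds held 254, 91.1, 191 and 223 CPM at day 7 (1.86 ± 0.357, adjusted p = 0.00129) and 152, 109.9, 70.5 and 105 CPM at day 14 (1.06 ± 0.347, adjusted p = 0.0288; lost on leaving out any of Mus skin libraries 1, 2 and 4 and Mus day 14 libraries 1 and 2, adjusted p up to 0.107). In Acomys, Ccr2 was at 92.3, 71.0, 89.6 and 96.4 CPM in skin. Acomys wound levels of Ccr2 were 92.3, 117, 146 and 124 CPM at day 7 (0.46 ± 0.143, adjusted p = 0.0143; lost on leaving out any of Acomys skin library 2 and Acomys day 7 library 3, adjusted p up to 0.0629) and 117, 108, 113 and 113 CPM at day 14 (0.37 ± 0.143, adjusted p = 0.075).

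Ccr3, the eosinophil receptor, rose at day 7 in Mus, from 0.975, 0.965 and 2.61 CPM in skin to 11.4, 10.9, 10.3 and 8.77 (2.75 ± 0.470, adjusted p = 0.000559; 3.41 without skin replicate 4), and was at 1.84, 3.77, 1.23 and 4.78 at day 14 (0.93 ± 0.480, adjusted p = 0.139; passed on leaving out any of Mus skin library 4 and Mus day 14 library 3, adjusted p down to 0.0356). In Acomys the groups overlapped, at 7.81, 5.57, 4.52 and 7.29 CPM in skin. For Ccr3 the wounds held 3.61, 3.72, 8.89 and 6.44 CPM at day 7 (-0.15 ± 0.266, adjusted p = 0.683) and 5.78, 4.44, 6.71 and 6.51 CPM at day 14 (-0.10 ± 0.265, adjusted p = 0.841). Ccr7, the receptor for Ccl19 on dendritic and T cells, rose while its ligand fell. It was at 0.266, 0.148 and 1.52 CPM in Mus skin. Ccr7 levels in Mus wounds were 11.6, 3.70, 5.30 and 7.43 CPM at day 7 (3.39 ± 0.666, adjusted p = 0.00145) and 3.59, 3.77, 5.56 and 2.27 CPM at day 14 (2.49 ± 0.674, adjusted p = 0.0118), and without skin replicate 4 these values were 5.05 and 4.14. The day 14 call was lost without the 3 muscle-poor libraries (2.11, adjusted p = 0.0783). Acomys levels of Ccr7 were 1.94, 0.863, 0.332 and 1.28 CPM in skin. Wound levels of Ccr7 were 2.98, 8.54, 9.01 and 5.34 CPM at day 7 (2.53 ± 0.416, adjusted p = 0.000114) and 3.08, 2.88, 1.98 and 1.84 CPM at day 14 (1.12 ± 0.432, adjusted p = 0.0766; passed on leaving out Acomys skin library 1, adjusted p = 0.0251).

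Cx3cr1, found on patrolling monocytes, macrophages and Langerhans cells, was at 1.89, 2.75 and 2.33 CPM in Mus skin. The Mus wounds held 12.5, 12.5, 7.699 and 7.85 CPM at day 7 (2.12 ± 0.224, adjusted p = 1.81e-05) and 12.9, 11.5, 12.5 and 12.1 CPM at day 14 (2.40 ± 0.224, adjusted p = 1.45e-05), all wound libraries above skin. In Acomys, Cx3cr1 was at 15.1, 20.9, 14.21 and 22.0 CPM in skin. Acomys wound levels of Cx3cr1 were 14.06, 14.18, 9.67 and 13.01 CPM at day 7 (-0.50 ± 0.170, adjusted p = 0.0219; lost on leaving out any of Acomys skin libraries 2 and 4 and Acomys day 7 libraries 2, 3 and 4, adjusted p up to 0.139) and 14.9, 15.3, 15.7 and 14.54 CPM at day 14 (-0.25 ± 0.169, adjusted p = 0.324). Cxcr3, carried by activated T and NK cells, rose in Acomys from 0.187, 0.157, 0.133 and 0.742 CPM in skin to 3.16, 5.78, 4.03 and 3.13 at day 7 (3.68 ± 0.403, adjusted p = 5.75e-07) and 0.918, 1.63, 1.14 and 1.10 at day 14 (1.92 ± 0.445, adjusted p = 0.00366). Skin replicate 4 was the highest of its group, and without it the values were 4.61 and 2.83. In Mus, Cxcr3 was at 1.51, 2.45 and 2.10 CPM in skin. For Cxcr3 the wounds held 4.13, 2.12, 1.66 and 1.55 CPM at day 7 (0.23 ± 0.437, adjusted p = 0.675) and 3.88, 1.55, 1.51 and 1.57 CPM at day 14 (0.07 ± 0.442, adjusted p = 0.917), and the groups overlapped. The T and NK cell markers summed to 28.5 to 58.2 CPM in Acomys skin and 36.2 to 75.1 CPM at day 7, ranges that overlapped, with 2 of 8 markers raised and 1 lowered.

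Ccr10, which binds Ccl27a and Ccl28, fell in each species at day 7, from 1.60, 2.60 and 1.96 to 0.243, 1.29, 0.554 and 0.825 CPM in Mus (-1.51 ± 0.414, adjusted p = 0.00935) and from 1.69, 1.65, 1.13 and 2.43 to 0.516, 0.620, 0.481 and 0.491 CPM in Acomys (-1.70 ± 0.332, adjusted p = 0.000353). At day 14 it was at 1.55, 1.44, 1.32 and 1.02 CPM (-0.63 ± 0.392, adjusted p = 0.212) and 0.810, 1.56, 1.98 and 1.36 CPM (-0.28 ± 0.292, adjusted p = 0.561). Ccr6, the receptor for Ccl20 on B cells, dendritic cells and some T cells, fell in Acomys from 2.56, 0.941, 1.46 and 1.89 to 0.631, 0.688, 0.361 and 0.552 CPM at day 7 (-1.62 ± 0.455, adjusted p = 0.00725) and was at 2.92, 0.467, 1.08 and 1.26 at day 14 (-0.24 ± 0.401, adjusted p = 0.745). In Mus it was at 0.871 to 1.85 CPM in all libraries, with no call. Cxcr6, the receptor for Cxcl16 on T and NK cells, had no call against skin in either species. Replicate 1 of Mus held 23.5 CPM at day 7 and 26.5 CPM at day 14, and the group means were 6.75 ± 1.07 (SD) CPM in skin, 14.32 ± 9.64 at day 7 and 11.2 ± 10.2 at day 14.

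**Figure D4:**
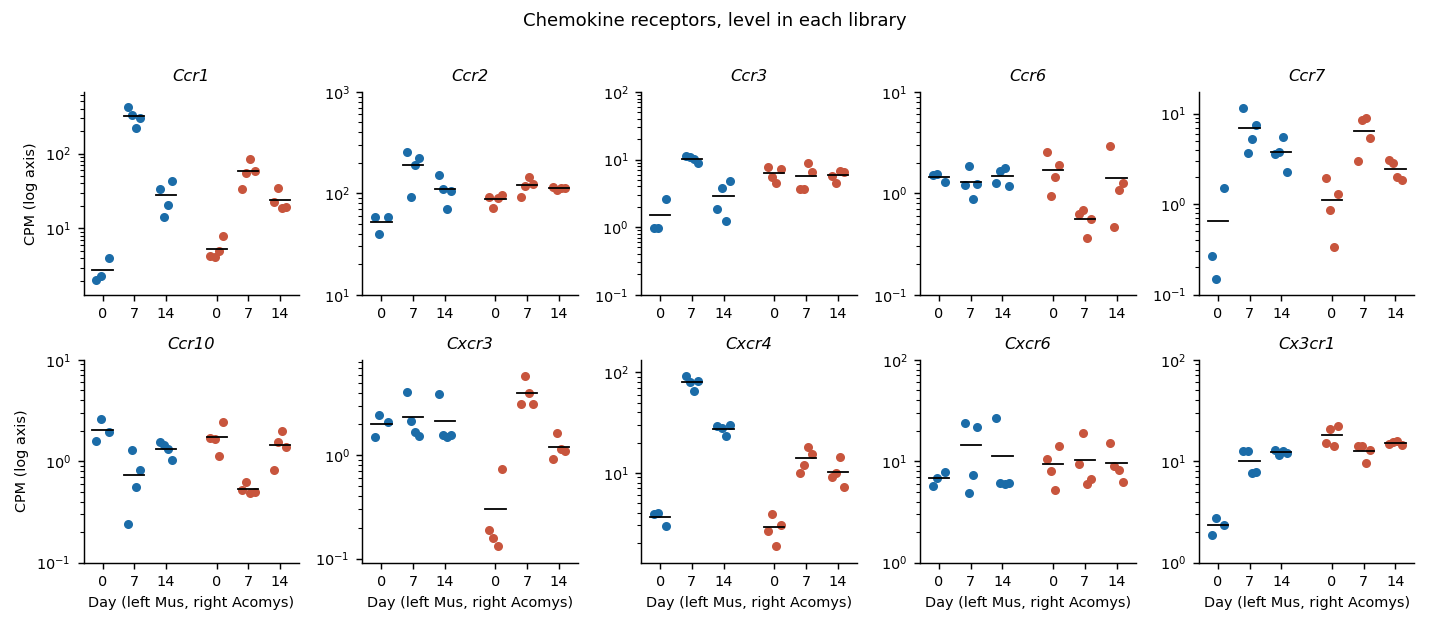
Level in each library (CPM, log axis) of the 10 receptors, with groups, colours and symbols as in the plot of inflammatory ligands. Ccr1 and Cxcr4 are higher in all wound libraries than in skin in both species, Cx3cr1 is so only in Mus, and Ccr10 has its lowest mean at day 7 in both.

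From day 7 to day 14 most members that changed came down. In Mus, 3 rose and 15 fell, against 10.8% and 13.1% of all features, and in Acomys 8 rose and 16 fell, against 14.32% and 11.9%. The same day 7 libraries gave the day 7 changes described above, so these comparisons share their values. All 4 Cxcr2 ligands fell in each species. In Mus the log2 fold changes were -4.65 ± 1.10, adjusted p = 0.0135, for Cxcl2 (-5.96 without day 14 replicate 4), -5.08 ± 0.689, adjusted p = 0.000846, for Cxcl5, -5.40 ± 0.628, adjusted p = 0.000382, for Cxcl3 (-6.32 without day 14 replicate 4) and -3.22 ± 0.545, adjusted p = 0.00255, for Cxcl1 (-3.95 without day 14 replicate 2). In Acomys the values were -7.86 for Cxcl2, -4.99 for Cxcl1 and -4.42 for Cxcl5, and Cxcl3 was at least 30.3-fold lower. Ccl3 and Ccl4 changed by -4.09 and -4.21 in Mus (-5.14 and -5.57 without day 14 replicate 4) and by -6.74 and -6.56 in Acomys. Ccl6, Ccl9, Ccl2, Ccl7, Ccr1, Ccr3 and Cxcr4 also fell in Mus, and Ccl6, Ccl7, Ccl8, Ccl12, Cxcl13, Cxcl16, Ccl28, Ccr1, Ccr7 and Cxcr3 in Acomys. Cxcl13 in Acomys had a value of -3.26, and -4.58 without day 14 replicate 3.

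Of the genes that had fallen at day 7, 8 rose again by day 14 in Acomys. They were Ccl19 (5.32 ± 0.421, adjusted p = 4.23e-08), Ccl24 (2.59 ± 0.258, adjusted p = 5.86e-07), Cxcl14 (1.99 ± 0.304, adjusted p = 0.000304), Ccl27a (1.52 ± 0.2996, adjusted p = 0.00102), Cxcl12 (1.41 ± 0.220, adjusted p = 0.000121), Cxcl9 (1.94 ± 0.407, adjusted p = 0.00323), Ccr10 (1.42 ± 0.334, adjusted p = 0.00364) and Ccr6 (1.39 ± 0.456, adjusted p = 0.0309). In Mus, Ccl27a (1.28 ± 0.233, adjusted p = 0.0031), Ccl11 (1.32 ± 0.288, adjusted p = 0.00808) and Ccl20 (2.27 ± 0.745, adjusted p = 0.0482) rose, while Cxcl12 (-1.53 ± 0.203, adjusted p = 0.000635) fell from its raised day 7 level and Cxcl14 (-1.22 ± 0.274, adjusted p = 0.00972) fell further. Without the 3 muscle-poor wound libraries the Mus counts were 3 and 10, and the calls of Ccl6 (adjusted p = 0.0683), Ccl7 (0.0512), Ccl9 (0.0538), Ccl20 (0.249), Cxcl14 (0.0957) and Ccr3 (0.052) were lost, while Ccl24 rose (1.495, adjusted p = 0.0294). In Mus the fall of Ccl7 was lost on leaving out any of Mus day 7 libraries 1 and 4 and Mus day 14 libraries 1, 3 and 4, adjusted p up to 0.078. In Acomys it was lost on leaving out any of Acomys day 14 libraries 3 and 4, adjusted p up to 0.0532. The rise of Ccl20 in Mus was lost on leaving out any of Mus day 7 libraries 1, 2, 3 and 4 and Mus day 14 libraries 2, 3 and 4, adjusted p up to 0.109. The rise of Ccr6 in Acomys was lost on leaving out any of Acomys day 7 libraries 1, 3 and 4 and Acomys day 14 library 1, adjusted p up to 0.189, and its value was 0.79 without day 14 replicate 1. Cxcl10 in Acomys had no call (-0.09 ± 1.01, adjusted p = 0.962), but without day 7 replicate 2, its only library above 0.2 CPM at that day, the value was 2.84 (adjusted p = 0.00302). Further calls were made in Mus for Ccl19 (on leaving out any of Mus day 14 libraries 2 and 4, adjusted p down to 0.0362), Ccl8 (on leaving out Mus day 14 library 4, adjusted p = 0.0346), Cxcl16 (on leaving out any of Mus day 7 libraries 2 and 3, adjusted p down to 0.0137), Ccl24 (on leaving out Mus day 7 library 3, adjusted p = 0.0282), Ccr2 (on leaving out Mus day 7 library 2, adjusted p = 0.0137) and Ccr10 (on leaving out Mus day 7 library 2, adjusted p = 0.0393). In Acomys they were made for Ccl11 (on leaving out Acomys day 7 library 1, adjusted p = 0.0114) and Cxcr4 (on leaving out Acomys day 14 library 3, adjusted p = 0.0436).

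Other genes of the chemokine system and of signalling below the receptors were counted from lists chosen with results of these data known. Of 26 further ligands and receptors in the Mus table, 20 passed the filter, and 11 rose and 7 fell at day 7. Those that rose were led by the receptor Ccr1l1 (7.25 ± 0.748), the receptor-like Ccrl2 (6.25 ± 0.497) and the platelet chemokine Ppbp (5.68 ± 0.567). Those that fell were led by Ccl27b (-5.41 ± 0.266), the scavenging receptor Ackr4 (-4.71 ± 0.236) and the Ccr7 ligand Ccl21a (-4.07 ± 0.3998). Of 19 in the Acomys table, 16 passed, and 8 rose and 2 fell. The rises were led by Cxcr1 (8.08 ± 0.793), Cxcr2 (3.597 ± 0.271) and Ppbp (2.69 ± 0.281), and Cxcl17 (-4.95 ± 0.625) and Ccl21c (-3.93 ± 0.466) fell. At day 14 the counts were 5 and 6 in Mus and 2 and 3 in Acomys. Cxcr2, the neutrophil receptor for Cxcl1, Cxcl2, Cxcl3 and Cxcl5, changed by 2.75 ± 0.317 at day 7 in Mus, and its change was larger in Acomys in the shared table by 1.72 ± 0.450. Its level there was lower in Acomys than in Mus at each day. Mean levels were 0.99 against 25.6 CPM in skin (-4.68 ± 0.355), where Acomys held 33 counts in all. They were 18.1 against 141 CPM at day 7 (-2.96 ± 0.246), and the day 14 difference was -4.48 ± 0.319. The part of counting in these differences was not tested. Of 25 genes that carry chemokine receptor signals, such as the Src-family kinases Fgr and Lyn and the exchange factor Dock2, 22 rose and 1 fell in Mus at day 7 and 20 rose and 2 fell in Acomys. At day 14, 18 rose and 1 fell in Mus and 10 rose and 1 fell in Acomys. The change between species differed for 10 of them at day 7, 3 higher and 7 lower in Acomys, beside 17.1% and 18.7% of all features. At day 14 it differed for 7, 2 higher and 5 lower, beside 13.1% and 12% of all features. Many of these signalling genes are expressed throughout white blood cells. The neutrophil sums and the monocyte and macrophage sums given above also rose at day 7 in both species. Their part in the changes of the signalling genes was not tested.

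Direct comparison of the species used the shared table, in which all 34 members present passed the filter. How that table was made is not given in the sources used here. Its members held a median of 75.5% of the Mus-table counts and 71.7% of the Acomys-table counts, with wide exceptions. Ccl27a held 234% in Mus, Ccl8 29.3% in Acomys against 50.8% in Mus, Ccl9 37.9% against 75.5%, Ccr2 42.5% against 76.8%, and Ccl28 31.1% against 28.8%. Cxcl3 differed the other way, with 70.5% in Acomys against 45.1% in Mus. Within Acomys the share also differed between groups for some members. From skin to day 7 it went from 31.0% to 47.4% for Ccr2, 42.6% to 74.9% for Cxcl5, 53.3% to 68.3% for Ccr1 and 48.9% to 62.4% for Ccr3. For Cx3cr1 it went down, from 45.2% to 38.2%. A difference between species in level or in change can include such differences in counting, whose part was not tested.

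In unwounded skin, 8 members were higher and 6 lower in Acomys, beside 34.5% and 31.2% of all features. Cxcl5 had no count in Mus skin in this table and 6.90, 7.07, 7.38 and 11.9 CPM in Acomys skin, at least 63.2-fold higher (adjusted p = 0.000413; at least 41.0-fold without Mus replicate 2 and 40.9-fold without Mus replicate 4). Ccl12 (3.14 ± 0.408, adjusted p = 1.01e-06), Cx3cr1 (2.84 ± 0.227, adjusted p = 5.86e-10), Ccl22 (1.5003 ± 0.431, adjusted p = 0.00444), Ccl20 (1.91 ± 0.619, adjusted p = 0.0103), Ccl28 (1.91 ± 0.566, adjusted p = 0.00538), Cx3cl1 (1.09 ± 0.323, adjusted p = 0.00551) and Ccr3 (1.39 ± 0.489, adjusted p = 0.017) were the others that were higher. Cxcl13 was lower in Acomys by a ratio of 74.1 (12.7 to 2984; at least 18.9-fold without Acomys replicate 2, which held the single count; adjusted p = 0.014). Cxcr3 (-2.92 ± 0.584, adjusted p = 0.000161), Ccl8 (-1.37 ± 0.356, adjusted p = 0.00224), Ccl27a (-0.999 ± 0.222, adjusted p = 0.000483), Ccl6 (-0.73 ± 0.260, adjusted p = 0.0179) and Ccl9 (-0.53 ± 0.232, adjusted p = 0.0494) were lower. Ccl8, Ccl27a and Ccl9 are among the genes given above whose shares of counts differed between species or tables. Leaving out a library moved Ccl28 to 3.04 (Mus replicate 2), Ccr3 to 2.09 (Mus replicate 4) and Cxcr3 to -3.98 (Acomys replicate 4). Mus skin held 14 counts of Ccl28 in all in the shared table. The call of Ccl9 was lost on leaving out any of Mus skin libraries 1, 2 and 4 and Acomys skin libraries 1, 2 and 4, adjusted p up to 0.166, that of Ccr3 on leaving out any of Mus skin libraries 1 and 2 and Acomys skin library 1, adjusted p up to 0.0847, and that of Ccl6 on leaving out Acomys skin library 2, adjusted p = 0.0605. Ccr7 passed on leaving out Mus skin library 4, adjusted p = 0.0444.

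In day 7 wounds, 5 members were higher and 15 lower in Acomys, beside 35.9% and 34.9% of all features. The higher ones were Ccl20 (4.14 ± 0.808, adjusted p = 0.000115), Ccl28 (3.93 ± 0.557, adjusted p = 2.08e-06; 4.51 without Mus replicate 2), Ccl12 (3.83 ± 0.342, adjusted p = 3.95e-09), Ccl8 (1.5005 ± 0.329, adjusted p = 0.000432) and Ccl11 (1.12 ± 0.369, adjusted p = 0.0104; lost on leaving out Acomys day 7 library 3, adjusted p = 0.108). All Mus day 7 libraries together held only 6 counts of Ccl20 and 8 of Ccl28 in the shared table, so the sizes of these differences are uncertain. The lower ones included Cxcl3 (-6.29 ± 0.514, adjusted p = 6.97e-08), Ccl4 (-3.29 ± 0.734, adjusted p = 0.000586), Ccl9 (-2.87 ± 0.223, adjusted p = 3.8e-10), Ccr1 (-2.73 ± 0.329, adjusted p = 3.83e-07), Ccl3 (-2.67 ± 0.681, adjusted p = 0.00221) and Cxcr4 (-2.47 ± 0.192, adjusted p = 2.68e-10). As stated above, no Acomys feature had Cxcl3 as its best protein match. The part of read assignment in the Cxcl3 difference was not tested. Cxcr4, for example, was at 109, 85.8, 73.3 and 90.9 CPM in Mus and 12.5, 14.38, 19.5 and 18.3 CPM in Acomys, far apart without overlap. Cxcl2, Cxcl9, Cxcl12, Ccl6, Ccl19, Ccl24, Ccr2, Ccr3 and Ccr6 were also lower. The call of Cxcl2 was lost on leaving out any of Mus day 7 libraries 1 and 2 and Acomys day 7 libraries 1, 2 and 4, adjusted p up to 0.0952, that of Ccr6 on leaving out any of Mus day 7 libraries 2 and 4 and Acomys day 7 libraries 3 and 4, adjusted p up to 0.098, and that of Cxcl9, with a value of -1.60, on leaving out Mus day 7 library 1, adjusted p = 0.0978. Further calls were made for Cxcl14 (on leaving out Acomys day 7 library 3, adjusted p = 0.0322) and Ccl2 (on leaving out Acomys day 7 library 2, adjusted p = 0.0427).

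In day 14 wounds, 7 members were higher and 13 lower in Acomys, beside 38.1% and 34.6% of all features. Cxcl14, at 16.5, 10.8, 14.9 and 12.99 CPM in Mus and 52.8, 101, 128 and 93.0 CPM in Acomys, was higher without overlap (2.76 ± 0.309, adjusted p = 1.21e-07). Cxcl12 (1.33 ± 0.219, adjusted p = 1.7e-05), Ccl20 (2.29 ± 0.616, adjusted p = 0.00232), Ccl28 (1.77 ± 0.526, adjusted p = 0.00485; 3.07 without Mus replicate 2), Ccl19 (1.36 ± 0.347, adjusted p = 0.00139), Ccl12 (1.35 ± 0.352, adjusted p = 0.00187) and Ccl2 (1.204 ± 0.393, adjusted p = 0.00998) were also higher. Mus day 14 wounds held 26 counts of Ccl20 and 16 of Ccl28 in all. Cxcl3 was at least 36.5-fold lower, and at least 15-fold without Mus replicate 4. The part of read assignment in the Cxcl3 difference was not tested here either. Ccl4 (-5.68 ± 1.33, adjusted p = 0.000907), Cxcl2 (-5.30 ± 1.03, adjusted p = 0.000163) and Ccl3 (-5.05 ± 1.19, adjusted p = 0.00117) were lower. Without Mus replicate 4 their values were -4.24, -4.02 and -4.02, and without Acomys replicate 4 that of Ccl4 was -6.35. Cxcl1, Cxcl13, Cxcl16, Ccl6, Ccl8, Ccl9, Ccl11, Ccr2 and Cxcr4 completed the lower genes. The call of Cxcl1 was lost on leaving out Mus day 14 library 2, adjusted p = 0.123, with a value of -1.04. The call of Cxcl13 was lost on leaving out any of Mus day 14 libraries 1 and 4 and Acomys day 14 libraries 1, 2 and 4, adjusted p up to 0.114, and its value was -2.40 without Mus replicate 1 and -4.50 without Acomys replicate 3. The call of Cxcl16 was lost on leaving out any of Mus day 14 libraries 1, 2, 3 and 4 and Acomys day 14 libraries 1, 3 and 4, adjusted p up to 0.125, and that of Ccr2 on leaving out Mus day 14 library 1, adjusted p = 0.0668. Further calls were made for Ccl24 (on leaving out any of Mus day 14 library 3 and Acomys day 14 library 4, adjusted p down to 0.0361), Ccr1 (on leaving out Mus day 14 library 2, adjusted p = 0.0443), Ccr7 (on leaving out any of Mus day 14 library 4 and Acomys day 14 library 1, adjusted p down to 0.0305) and Cxcr3 (on leaving out Mus day 14 library 4, adjusted p = 0.0491). Without the 3 muscle-poor Mus wound libraries, 7 were higher and 14 lower, with Ccl24 (-0.94, adjusted p = 0.00803) and Ccr1 (-1.004, adjusted p = 0.00971) gained and Cxcl16 (adjusted p = 0.0676) lost.

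Whether the response itself differed between species was tested as the change in Acomys minus the change in Mus. At day 7, 2 members had a larger change upward in Acomys and 11 a change further downward or less upward, beside 17.1% and 18.7% of all features. Ccl8 (2.87 ± 0.484, adjusted p = 0.000127) and Cxcr3 (3.32 ± 0.708, adjusted p = 0.000963; 4.38 without Acomys skin replicate 4) were the 2. The share of Acomys Ccl8 counts that the shared table held was itself 17.1% in skin and 32.1% at day 7, beside a day 7 change of 2.77 in the Acomys table and 0.69 in the Mus table. The 11 were Ccr1 (-3.17 ± 0.573, adjusted p = 0.000253), Cx3cr1 (-2.98 ± 0.289, adjusted p = 1.14e-07), Ccr3 (-2.74 ± 0.617, adjusted p = 0.00161; -3.44 without Mus skin replicate 4), Ccl9 (-2.34 ± 0.3202, adjusted p = 1e-05), Cxcr4 (-2.15 ± 0.335, adjusted p = 3.86e-05), Cxcl12 (-2.06 ± 0.323, adjusted p = 4.69e-05), Ccl22 (-2.18 ± 0.613, adjusted p = 0.00853), Ccl24 (-2.02 ± 0.529, adjusted p = 0.00506), Ccl19 (-1.88 ± 0.685, adjusted p = 0.0362), Cxcl9 (-3.41 ± 1.23, adjusted p = 0.0373) and Cxcl5. For Cxcl5 (adjusted p = 0.00653) the fitted size rests on Mus skin libraries with no count and gives no fold. Its levels in this table were 407, 56.6, 109 and 348 CPM at day 7 in Mus. Acomys libraries held 6.90, 7.07, 7.38 and 11.9 CPM in skin and 245, 308, 581 and 311 CPM at day 7.

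Of these, Cxcl12 and Cx3cr1 had passed in opposite directions in the separate tables. In the shared table Cxcl12 was at 108, 122 and 111 CPM in Mus skin and 315, 204, 172 and 224 at day 7. In Acomys it was at 204, 118, 154 and 116 CPM in skin and 57.8, 55.3, 87.3 and 84.1 at day 7. Cx3cr1 was at 2.25, 1.88 and 1.75 CPM in Mus skin and 10.8, 10.1, 6.08 and 6.85 at day 7. Acomys skin held 12.1, 15.1, 11.1 and 17.8 CPM and the day 7 wounds 9.08, 8.31, 6.31 and 7.21 CPM, so that skin levels were far apart and the day 7 wounds of the species overlapped. The call of Ccl19 was lost on leaving out any of Mus skin library 4, Mus day 7 libraries 1 and 2, Acomys skin libraries 1 and 4, and Acomys day 7 libraries 2, 3 and 4, adjusted p up to 0.118. The call of Cxcl9 was lost on leaving out any of Mus skin libraries 1, 2 and 4, Mus day 7 libraries 1 and 4, Acomys skin libraries 1 and 4, and Acomys day 7 libraries 1, 3 and 4, adjusted p up to 0.0973, and its value was -2.69 without Mus day 7 replicate 1, a library high in T and NK cell markers. Further calls were made when a library was left out for Ccl27a (on leaving out Acomys skin library 4, adjusted p = 0.00668), Ccl28 (on leaving out any of Mus skin library 1 and Mus day 7 library 2, adjusted p down to 0.0428), Ccl6 (on leaving out any of Mus day 7 libraries 1 and 2 and Acomys skin library 2, adjusted p down to 0.046), Ccr2 (on leaving out any of Mus day 7 library 2 and Acomys skin library 2, adjusted p down to 0.0134), Cx3cl1 (on leaving out any of Mus day 7 library 4, Acomys skin library 2, and Acomys day 7 library 1, adjusted p down to 0.0128) and Cxcl13 (on leaving out Mus day 7 library 1, adjusted p = 0.0157). Without the 3 muscle-poor Mus wound libraries, 2 differences were higher and 13 lower, with Cx3cl1 (-1.18, adjusted p = 0.0447) and Cxcl2 (-4.17, adjusted p = 0.0183) gained. Markers also differed in their day 7 change: 6 of 9 monocyte and macrophage markers were higher in Acomys and 1 lower, 2 of 8 neutrophil markers were lower, 2 of 5 fibroblast markers were higher, and 4 of 4 blood endothelial markers were lower. Of 4 immediate early genes, 3 were lower (Egr1, Ier2 and Jun). Of 6 dendritic and Langerhans cell markers 1 was higher and 2 lower, keratinocyte and mast cell markers had 1 each way, 1 of 3 lymphatic markers was higher, and no T and NK cell or muscle marker passed. Their part in the differences of the chemokine genes was not tested.

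At day 14, 5 members had the higher change in Acomys and 9 the lower, beside 13.1% and 12% of all features. The 5 were Cxcl14 (2.60 ± 0.421, adjusted p = 0.000162), Cxcr3 (2.07 ± 0.749, adjusted p = 0.0471; 3.13 without Acomys skin replicate 4), Ccl19 (1.48 ± 0.465, adjusted p = 0.0233), Ccl27a (1.07 ± 0.331, adjusted p = 0.0215) and Cxcl12 (0.95 ± 0.317, adjusted p = 0.0325). The 9 were Cxcl2 (-7.56 ± 2.19, adjusted p = 0.0166), Cxcl1 (-3.29 ± 1.19, adjusted p = 0.0496), Cx3cr1 (-2.89 ± 0.286, adjusted p = 4.91e-07), Ccl11 (-1.81 ± 0.547, adjusted p = 0.0196), Ccl12 (-1.79 ± 0.545, adjusted p = 0.0199), Ccl6 (-1.58 ± 0.355, adjusted p = 0.00267), Ccl9 (-1.10 ± 0.317, adjusted p = 0.0146), Cxcr4 (-0.98 ± 0.338, adjusted p = 0.0376) and Cxcl5 (adjusted p = 0.0172, with no size given for the same reason as at day 7). Cxcl3, Ccl3, Ccl4, Ccl7, Ccr1, Ccr2 and Ccr7, all raised at day 14 in Mus against skin, did not pass this test of the difference. Without the 3 muscle-poor Mus wound libraries, 8 calls were made, 1 higher and 7 lower, and those of Ccl12 (adjusted p = 0.074), Ccl19 (0.0892), Ccl27a (0.0711), Cxcl1 (0.0521), Cxcl12 (0.145) and Cxcr3 (0.137) were lost. The value for Cxcl2 was -6.29 without Mus day 14 replicate 4 and -6.86 without Acomys skin replicate 4. Its call was lost on leaving out Acomys skin library 4, adjusted p = 0.0725. The value for Cxcl1 was -2.57 without Mus day 14 replicate 2. In the shared table Mus Ccl27a held 257% of the Mus-table count in skin and 160.3% at day 14, and the part of this in its difference was not tested.

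Several of the day 14 calls were near the threshold. The count of 14 was 9 without Mus skin replicate 1 or Acomys day 14 replicate 4. The call of Cxcl1 was lost on leaving out any of Mus skin libraries 1, 2 and 4, Mus day 14 libraries 1 and 2, Acomys skin libraries 2 and 4, and Acomys day 14 libraries 2, 3 and 4, adjusted p up to 0.12. That of Cxcr3 was lost on leaving out any of Mus skin libraries 2 and 4, Mus day 14 libraries 2, 3 and 4, Acomys skin libraries 1, 2 and 3, and Acomys day 14 libraries 2, 3 and 4, adjusted p up to 0.108. That of Cxcl12 was lost on leaving out any of Mus skin libraries 1, 2 and 4, Mus day 14 libraries 1, 2 and 3, Acomys skin libraries 2 and 4, and Acomys day 14 libraries 3 and 4, adjusted p up to 0.0738. That of Cxcr4 was lost on leaving out any of Mus skin libraries 2 and 4, Mus day 14 libraries 1 and 4, Acomys skin libraries 2 and 4, and Acomys day 14 libraries 1, 2 and 4, adjusted p up to 0.118. That of Ccl19 was lost on leaving out any of Mus skin library 1, Mus day 14 libraries 2 and 4, and Acomys day 14 library 3, adjusted p up to 0.0554. For Ccl27a it was lost on leaving out any of Mus skin library 1 and Acomys day 14 library 4, adjusted p up to 0.0541, for Ccl11 on leaving out Mus skin library 1, adjusted p = 0.0531, and for Ccl12 on leaving out Mus skin library 4, adjusted p = 0.0603. Further calls were made for Ccl22 (on leaving out any of Mus day 14 library 4, Acomys skin library 3, and Acomys day 14 library 1, adjusted p down to 0.0152) and Ccr7 (on leaving out Mus skin library 4, adjusted p = 0.0306). Cxcl14, Cx3cr1, Ccl6, Ccl9 and Cxcl5 kept the call at day 14 whichever single library was left out. In the same comparison 3 of 8 neutrophil markers, 2 of 4 keratinocyte markers and 3 of 4 blood endothelial markers were lower in Acomys, and 3 of 5 fibroblast markers were higher. Of the other lists, Cd4 and Itgax were lower, and Mrc1, Cd207, Lyve1 and the muscle gene Myh1 were higher. Their part was not tested.

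**Figure D5:**
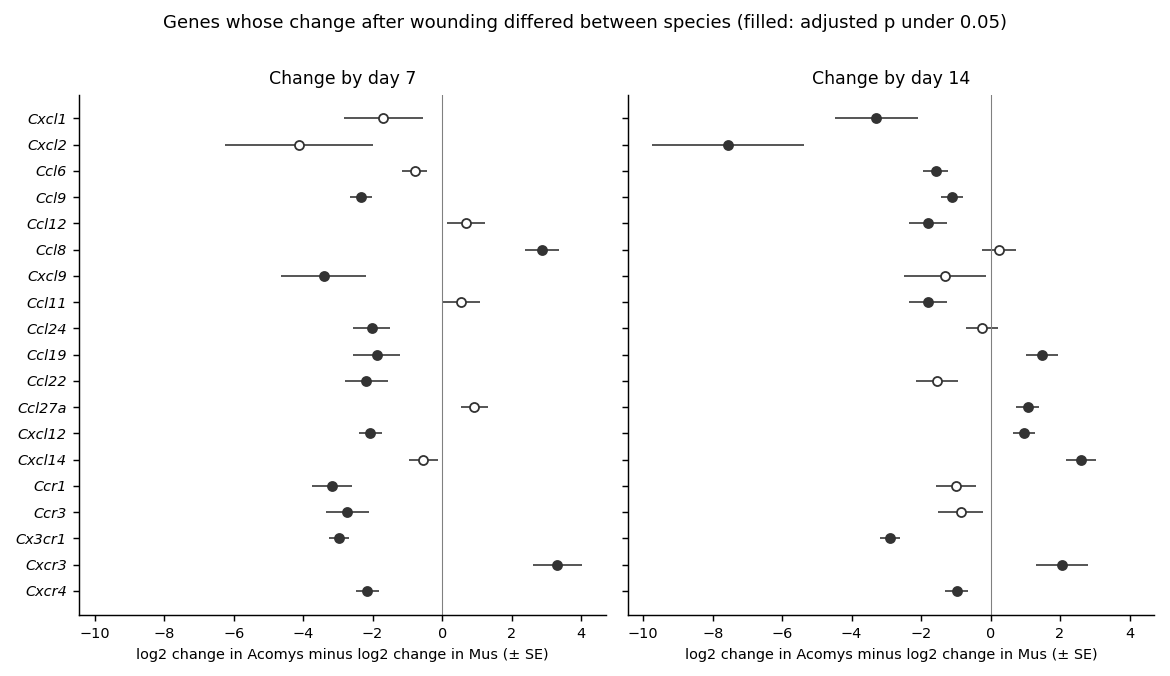
Difference of the log2 change between species (Acomys minus Mus, with its SE) for 19 genes with a called difference at day 7 or day 14, with a panel for each day; filled symbols mark adjusted p under 0.05. At day 7 most filled genes lie to the left, apart from Ccl8 and Cxcr3, and at day 14 Cxcl14, Ccl19, Ccl27a, Cxcl12 and Cxcr3 lie to the right.

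The path from day 7 to day 14 also differed. The change was higher in Acomys for 8 members and lower for 3, beside 12.7% and 9.49% of all features. Ccl19 (3.36 ± 0.701, adjusted p = 0.00147), Cxcl14 (3.14 ± 0.421, adjusted p = 2.67e-05) and Cxcl12 (3.01 ± 0.311, adjusted p = 1.46e-06) had the 3 largest values upward, followed by Ccr1 (2.18 ± 0.455, adjusted p = 0.00172), Ccr3 (1.88 ± 0.558, adjusted p = 0.019), Ccl24 (1.78 ± 0.519, adjusted p = 0.0168; lost on leaving out Mus day 7 library 3, adjusted p = 0.053), Ccl9 (1.24 ± 0.3002, adjusted p = 0.005) and Cxcr4 (1.17 ± 0.267, adjusted p = 0.003). For Ccr1, Ccl9 and Cxcr4 the Mus values from day 7 to day 14 were -3.502, -1.08 and -1.54 in the Mus table and the Acomys values -1.29, 0.12 and -0.45 in the Acomys table. Ccl8 (-2.63 ± 0.469, adjusted p = 0.000466), Ccl12 (-2.48 ± 0.494, adjusted p = 0.0011) and Ccl11 (-2.35 ± 0.516, adjusted p = 0.00249) were lower. In the shared table Cxcl14 went from 50.1, 25.6, 38.2 and 17.7 CPM at day 7 to 16.5, 10.8, 14.9 and 12.99 at day 14 in Mus, down without overlap. In Acomys it went from 22.0, 18.6, 40.6 and 20.3 to 52.8, 101, 128 and 93.0 CPM, up without overlap. Ccl19 went from 1.78, 1.28, 0.946 and 0.351 to 4.49, 1.46, 3.24 and 1.99 CPM in Mus. Acomys Ccl19 went from 0.493, 0.319, 0.267 and 0 to 7.03, 4.94, 9.29 and 7.47 CPM. Every Acomys day 14 library lay above every Acomys day 7 library of Ccl19, and the Mus day 14 and day 7 ranges overlapped. Further calls were made when a library was left out for Ccl6 (on leaving out any of Mus day 7 library 3 and Mus day 14 library 3, adjusted p down to 0.00478), Cxcl2 (on leaving out any of Mus day 14 libraries 2 and 3 and Acomys day 7 library 2, adjusted p down to 0.0168), Cxcl1 (on leaving out Mus day 14 library 3, adjusted p = 0.0431), Cxcl9 (on leaving out Mus day 14 library 1, adjusted p = 0.0299) and Ccl28 (on leaving out any of Mus day 7 library 2 and Mus day 14 library 3, adjusted p down to 0.0426). Without the 3 muscle-poor Mus wound libraries, 5 differences were higher and 5 lower. Ccl9 (adjusted p = 0.0628), Ccl24 (0.177) and Ccr3 (0.0991) were lost, and Ccl6 (-1.39, adjusted p = 0.000778) and Cxcl2 (-4.35, adjusted p = 0.000872) were gained on the lower side.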

How the data were processed

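RNA-seq libraries of Mus musculus (11) and Acomys cahirinus (12) dorsal skin and wounds were analysed from 3 deposited tables. The 2 species tables hold expected counts per gene or assembled transcript group, which the authors deposited and which need not be whole numbers. The table shared by the species holds whole-number counts, as deposited by the authors; how it was made is not given in the sources used here. Per the submitters' processing notes, RSEM 1.2.28 and Bowtie2 were among the tools, with Trimmomatic 0.32, FastQC 0.11.4 and the build mm9.

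Expected counts were rounded, spike-in features were left out, and each table was fitted separately over its groups with edgeR 4.0.16 in R 4.3.3: filterByExpr by group, TMM scaling and the robust quasi-likelihood test, with Benjamini-Hochberg adjustment over all features passing the filter. Levels are TMM-scaled counts (CPM). With 9339214 to 18470245 counts per library in the species tables and 5980683 to 9853153 in the shared table, 3 counts over a group were taken as the floor where a group had none, and exact 95% intervals of count ratios cover counting error only.

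Members were matched by symbol. The members and the other lists were chosen with earlier results of these data known. Levels are given in every library for the 4 largest rises and falls against skin in each species and day, up to 6 species differences and each receptor that passed; other members are given by counts, ranges and examples, or in full. Replicate numbers in the labels were taken to pair Mus wounds with Mus skin, since same-numbered libraries deviated together in every pair (correlation 0.12 to 0.163 at day 7 and 0.12 to 0.209 at day 14). The main tests did not use this pairing, so their values and p-values in Mus are those of unpaired groups. A fit with a replicate block was run as an alternative. Alternatives were DESeq2 1.42.0, RLE scaling, no filter, the replicate block, fits of only the groups compared, leaving out each library, and leaving out 3 muscle-poor Mus wound libraries. The fit was tested on simulated data. Pooled Acomys material is not analysed here.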

Additional observations from a re-analysis of the deposited data

Results flagged for a closer look

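In 15 of 189 groups of 4 libraries a single library stood apart from the rest, where chance alone gives about 1 in 20 groups. In Mus, replicate 1 did so in 4 groups: at day 14 for Cxcl10 (11.3 CPM, the others 0.943 to 2.11), Cxcr3 (3.88, the others 1.51 to 1.57) and Cxcr6 (26.5, the others 5.94 to 6.11), and at day 7 for Cxcl13 (13.4, the others 0.739 to 2.22). The T and NK cell marker sum of replicate 1 was 60.1 CPM at day 14, and its part in these values was not tested. Mus replicate 2 stood apart for Ccl28 at day 14 (3.002 CPM, the others 0.389 to 0.626) and day 7 (1.85, the others 0.309 to 0.486). In Acomys, day 7 replicate 2 was high for the interferon-induced Cxcl10 (3.72 CPM, the others 0.0574 to 0.184) and Cxcl9 (6.95, the others 2.15 to 2.70), and day 7 replicate 3 for Cxcl14 (35.4, the others 17.1 to 18.2). Day 7 replicate 1 was low for Ccl8 (477 CPM, the others 853 to 892). At day 14, replicate 1 was high for Ccl25 (1.62 CPM, the others 1.08 to 1.17) and low for Ccl6 (18.9, the others 23.2 to 23.7), and replicate 2 was high for Cxcl16 (32.7, the others 23.4 to 24.3). In Acomys skin, replicate 1 was high for Cxcl12 (161 CPM, the others 95.8 to 102) and replicate 4 for Cxcr3 (0.742, the others 0.133 to 0.187).

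The change over time differed between the species, by the test of the difference itself, for 38 combinations of gene and comparison, given here as log2 change in Acomys minus that in Mus. At day 7 the values were 2.87 for Ccl8, 3.32 for Cxcr3, -3.41 for Cxcl9, -2.34 for Ccl9, -2.02 for Ccl24, -1.88 for Ccl19, -2.18 for Ccl22, -2.06 for Cxcl12, -3.17 for Ccr1, -2.74 for Ccr3, -2.98 for Cx3cr1 and -2.15 for Cxcr4. At day 14 they were 1.48 for Ccl19, 1.07 for Ccl27a, 0.95 for Cxcl12, 2.60 for Cxcl14, 2.07 for Cxcr3, -3.29 for Cxcl1, -7.56 for Cxcl2, -1.79 for Ccl12, -1.58 for Ccl6, -1.10 for Ccl9, -1.81 for Ccl11, -2.89 for Cx3cr1 and -0.98 for Cxcr4. From day 7 to day 14 they were 1.24 for Ccl9, 1.78 for Ccl24, 3.36 for Ccl19, 3.01 for Cxcl12, 3.14 for Cxcl14, 2.18 for Ccr1, 1.88 for Ccr3, 1.17 for Cxcr4, -2.48 for Ccl12, -2.63 for Ccl8 and -2.35 for Ccl11. For Cxcl5 the fitted values were -8.46 at day 7 and -8.17 at day 14, but these depend on the prior count added to Mus skin, which had no count in that table, and are no sizes.

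A pair of assembled Acomys features without a gene symbol had chemokines as their best protein match in the authors' deposited annotation and so were in no count above. The species of the matched proteins was not recorded. The feature TR129178|c0_g4, matched to Cxcl2, was at 0, 0.0785, 0 and 0 CPM in skin, 9.87, 8.74, 12.9 and 13.1 CPM at day 7 and 0 to 0.105 CPM at day 14, with a fitted day 7 value of 8.81 (edgeR adjusted p = 8.79e-11) that rests on 1 count in skin. The feature TR125110|c0_g1, matched to Ccl6, was at 0.0808 to 0.658 CPM in skin and 2.43 to 2.77 CPM at day 7, a log2 fold change of 2.60 ± 0.405 (edgeR adjusted p = 3.52e-05). At day 14 its value was 0.71 (adjusted p = 0.311).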

How the results depend on the processing

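Over 272 combinations of gene and comparison, 4098 values were computed under the alternatives; 3767 kept their side of the threshold (and their direction where called), 115 passed where they had not, 215 no longer passed and 1 was called in the opposite direction. That was Cxcl10 from day 7 to day 14 in Acomys, which moved from -0.09 to 2.84 without day 7 replicate 2, its highest library, and lay between -0.52 and 2.84 over the libraries left out. Of the changed values, 56 that passed and 171 that no longer passed came from leaving out a library. DESeq2 added 18 calls and lost 1, RLE scaling lost 2 and no filter on low counts lost 8. Leaving out a library gave 23 to 25 called members for Mus day 7 against skin, 17 to 21 for Mus day 14, and 16 to 20 between Mus wounds. The same comparisons in Acomys gave 27 to 31, 6 to 9 and 22 to 25. Those of the species gave 12 to 14 between skins, 18 to 20 between day 7 wounds, and 17 to 20 between day 14 wounds. The differences between species in the change gave 11 to 16, 9 to 14 and 11 to 15 at day 7, at day 14 and between the days. The count of 14 at day 14 fell to 8 without the 3 muscle-poor Mus wound libraries; the cause was not tested.

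With replicate number as a block the counts were 28, 20 and 17 in Mus, 30, 6 and 23 in Acomys, 14, 20 and 20 between species, and 15, 12 and 12 for the species differences. Apart from the Mus calls given with the results, the numbers were not taken to pair the samples: same-numbered libraries correlated at -0.000126 to 0.598 between Mus wounds (3 of 4 best with their own number), -0.144 to 0.0347, -0.199 to 0.25 and 0.0099 to 0.204 in Acomys, and -0.23 to 0.0862 across species. If both Mus wound days pair with skin by number, the Mus wounds also pair with each other. The calls between Mus wounds given above are those of unpaired groups. Genes with few counts in skin (Cxcl3, Cxcl5, Ccl3 and Cxcl13) are limited by depth to bounds or wide intervals.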
